A study of Mus musculus with 8 samples.

Results

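The core circadian clock genes of mouse hepatocytes were examined under shear stress, the frictional force that moving fluid exerts on a cell surface, against static conditions. The set holds 10 genes, taken by gene symbol: Clock, Arntl, Per1, Per2, Cry1, Cry2, Nr1d1, Nr1d2, Dbp and Bhlhe40. All 10 were found among the 17276 genes listed in the files, and all 10 passed the filter on low counts that 11747 genes passed. The libraries came from wild-type (WT) male C57BL/6N mice aged 6 to 8 weeks. There were 4 shear stress libraries and 4 static libraries of hepatocyte messenger RNA, numbered 1 to 4 in each group and sequenced with DNBSEQ. The labels give no size or duration of the stress, no hour of collection, and no statement that the 4 libraries of a group are separate animals or cultures. The p-values therefore measure only the spread between these libraries, which may be technical.

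The circadian clock is a feedback loop of transcription that runs in nearly every mammalian cell and, in the liver, times metabolism to feeding. CLOCK pairs with BMAL1, the product of Arntl, and the pair binds E-box sequences and activates Per, Cry, Nr1d and Dbp genes. PER and CRY proteins return to the nucleus and inhibit the pair that activated them. NR1D1 and NR1D2 (REV-ERB alpha and beta) repress Arntl through ROR response elements, while DBP activates genes that carry D-boxes. BHLHE40 (DEC1) is a repressor that competes for E-boxes and that many signals other than the clock also induce.

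The libraries held between 16225843 and 16732203 estimated counts under shear stress and between 15067056 and 17935566 under static conditions. Values below are CPM, in which counts are divided by library totals corrected with TMM factors, unless they are named as TPM, the transcript-based unit that also corrects for gene length. The 8 hepatocyte markers were all tested, 6 of them were lower and the other 2, Hnf4a and Cyp2e1, were not called (Cyp2e1 was with the replicate number as a block, adjusted p = 0.00313), and they summed to between 43711 and 58810 CPM in the shear stress libraries and to between 64425 and 83640 CPM in the static libraries, most of it Alb. Of the marker lists of other liver cells, lymphocyte markers summed to between 0.115 and 0.626 CPM under shear stress and between 8.76 and 11.8 CPM under static conditions, with both tested genes of 5 matched lower. Endothelial markers summed to between 4.87 and 21.1 CPM under shear stress and between 9.90 and 23.5 CPM under static conditions, with Pecam1 called lower among 5 tested of 8. The other tested endothelial markers, Cdh5, Stab2, Lyve1 and Kdr, lay the other way and were not called (log2 fold changes 0.73, 0.43, 0.38 and 0.33). Cholangiocyte markers summed to between 239 and 1735 CPM under shear stress and between 147 and 1332 CPM under static conditions, mostly Spp1, with 4 tested of 6 matched. Macrophage markers summed to between 16.7 and 56.7 CPM under shear stress and between 22.1 and 55.9 CPM under static conditions, with 1 tested gene of 7 matched, Cd68 (edgeR, adjusted p = 0.780). Stellate cell and fibroblast markers summed to between 6.64 and 9.50 CPM under shear stress and between 5.64 and 12.0 CPM under static conditions, with 2 tested genes of 8, Reln (adjusted p = 0.910) and Dcn (0.175, and 0.0220 with the block). No matched marker of any list was at 0 in all 8 libraries. The part of these shifts in the clock results was not tested, and in bulk RNA fewer cells of a type and less RNA per cell cannot be told apart.

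Most of the clock genes were lower under shear stress. Clock, Cry1, Cry2, Nr1d1, Nr1d2 and Dbp fell, Per2 and Bhlhe40 rose, and Arntl and Per1 were not called by the quasi-likelihood test of edgeR at an adjusted p of 0.05. The 8 calls among 10 members stand against 48.6% of all tested genes called in either direction. The 6 falls stand against 23.7% of tested genes called lower, and the 2 rises against 24.9% called higher. The median log2 fold change was -0.99 over the 10 members and -0.01 over all tested genes. In 6 members the libraries of the groups did not overlap, which was so for 45.3% of tested genes. The libraries of the groups deviate together by replicate number, and with this number as a block all 10 members were called, 8 lower and 2 higher, against 61.1% of tested genes called, 31% lower and 30.1% higher. In all 10 members, 4 of 4 pairs of libraries with the same number differed in the direction of the fold change.

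**Figure D1:**
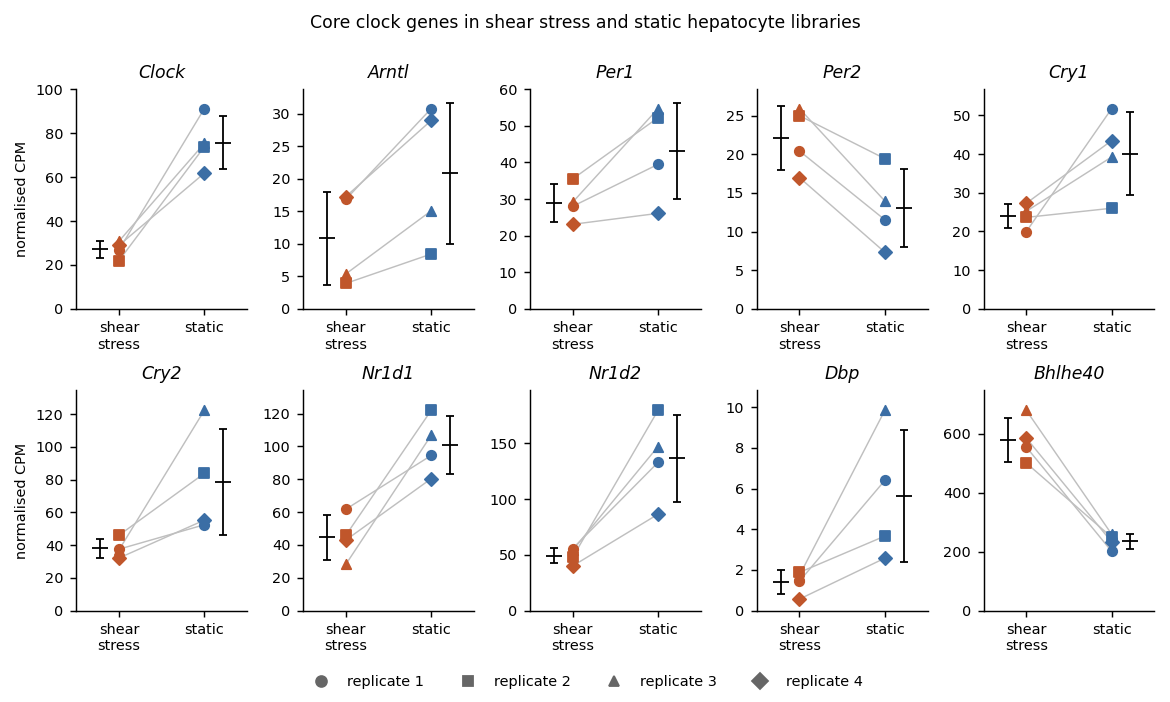
Normalised CPM of the 10 core clock genes (vertical axes from 0, one scale per gene) in 4 shear stress libraries (left of each panel) and 4 static libraries (right). Symbols mark replicate numbers, grey lines join libraries with the same number, and black bars are mean ± SD. Every grey line runs in the direction of its gene, upward towards shear stress in Per2 and Bhlhe40 and downward in the other 8.

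The promoters of some members carry the short DNA words that clock proteins bind. Of these, 4 are shown because they hold every copy found of the E-box, the D-box and the ROR element core, and 2 of the 3 copies of the E'-box, a variant of the E-box. The windows are from RefSeq (GRCm38.p6), 300 bases each from 250 before to 50 after an annotated start, and 8 members had 12 windows. Per2 and Bhlhe40 had no window and were not searched. The words searched on both strands, overlaps counted, were the E-box CACGTG, the E'-box CACGTT, the D-box TTATGNAA, the ROR element core TAGGTCA and the cAMP response element TGACGTCA. Sequences read 5′ to 3′ on the strand of the gene with matches in capitals, and positions count from the annotated start at 0. The Per1 window, chr11:69098699-69098998 on the plus strand, holds an E-box at position -166 and a D-box at -24:
Per1: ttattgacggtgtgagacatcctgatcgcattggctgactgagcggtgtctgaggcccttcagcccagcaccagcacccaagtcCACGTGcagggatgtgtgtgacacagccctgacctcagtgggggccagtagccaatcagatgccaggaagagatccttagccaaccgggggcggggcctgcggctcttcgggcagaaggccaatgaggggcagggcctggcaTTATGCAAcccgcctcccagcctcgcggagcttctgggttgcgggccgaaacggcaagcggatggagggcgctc
The Cry1 window, chr10:85185005-85185304 on the minus strand, holds an E'-box read on the other strand at -79 and an E-box at -60:
Cry1: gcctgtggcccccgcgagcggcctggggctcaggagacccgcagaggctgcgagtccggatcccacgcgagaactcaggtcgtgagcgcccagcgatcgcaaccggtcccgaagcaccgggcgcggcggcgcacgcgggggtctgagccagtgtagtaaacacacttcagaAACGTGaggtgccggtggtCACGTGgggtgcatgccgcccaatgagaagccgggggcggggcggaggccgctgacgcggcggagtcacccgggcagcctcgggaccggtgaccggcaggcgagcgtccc
The Nr1d1 window, chr11:98775328-98775627 on the minus strand, holds an E'-box read on the other strand at -28:
Nr1d1: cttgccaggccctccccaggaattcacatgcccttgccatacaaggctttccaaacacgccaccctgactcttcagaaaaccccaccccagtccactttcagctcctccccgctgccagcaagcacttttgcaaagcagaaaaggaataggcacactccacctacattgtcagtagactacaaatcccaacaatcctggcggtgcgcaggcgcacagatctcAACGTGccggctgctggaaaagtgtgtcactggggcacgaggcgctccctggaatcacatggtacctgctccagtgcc
The second Arntl window, chr7:113207261-113207560 on the plus strand, holds the ROR element core at 30:
Arntl: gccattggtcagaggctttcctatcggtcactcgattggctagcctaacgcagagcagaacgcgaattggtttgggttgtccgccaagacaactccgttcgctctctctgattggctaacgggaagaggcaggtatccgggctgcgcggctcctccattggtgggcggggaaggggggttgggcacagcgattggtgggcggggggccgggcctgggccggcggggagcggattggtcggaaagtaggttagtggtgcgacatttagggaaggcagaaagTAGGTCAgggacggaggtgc

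Among 32851 RefSeq promoter windows of this length, 7.15% hold the E-box, 4.68% the E'-box, 3.38% the D-box, 2.61% the ROR element core and 1.79% the cAMP response element. The Cry2 window also holds an E'-box, and the windows of Clock, Nr1d2 and Dbp hold none of the words. Of the searched genes with these words, Cry1, Cry2 and Nr1d1 fell, while Per1 and Arntl did not pass the test. Clock, Nr1d2 and Dbp, with none of the words, fell as well (log2 fold changes -1.48, -1.47 and -1.98). Per2 and Bhlhe40, which rose, were not searched, and a match is a description of the letters only.

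Of the genes for the activating pair, Clock fell and Arntl did not pass the test. Clock (chr5:76209868-76305603) had 26.9, 22.0, 30.8 and 28.9 CPM in shear stress libraries 1 to 4, against 91.2, 73.8, 75.3 and 61.8 CPM in static libraries 1 to 4. Every shear stress library was below every static library. Its level averaged 27.1 ± 3.81 CPM under shear stress and 75.5 ± 12.1 CPM under static conditions (SD, n = 4 each), 2.78-fold lower (log2 fold change -1.48 ± 0.15 SE, adjusted p = 9.95e-05, edgeR).

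Arntl (chr7:113178471-113314126), which encodes BMAL1, had 16.8, 3.91, 5.37 and 17.3 CPM in shear stress libraries 1 to 4, against 30.8, 8.44, 15.1 and 29.0 CPM in static libraries 1 to 4. The groups overlapped, and in both of them libraries 1 and 4 were high and libraries 2 and 3 low. The highest library was 4.41 times the lowest under shear stress and 3.65 times under static conditions. Its level averaged 10.8 ± 7.19 CPM under shear stress and 20.8 ± 10.8 CPM under static conditions (SD, n = 4 each), a log2 fold change of -0.94 ± 0.57 that did not pass the test (adjusted p = 0.198, edgeR). Within pairs of the same replicate number the log2 ratios were -0.87, -1.11, -1.49 and -0.75, and with the number as a block the log2 fold change was -1.03 with an adjusted p of 0.00023.

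The period genes encode the partners of cryptochromes in the repressor complex. Per1 (chr11:69095108-69109965) had 28.0, 35.5, 29.1 and 23.1 CPM in shear stress libraries 1 to 4, against 39.5, 52.2, 54.7 and 26.1 CPM in static libraries 1 to 4. Static library 4 lay within the range of the shear stress libraries, and the other 3 static libraries lay above it. Per1 averaged 28.9 ± 5.10 CPM under shear stress and 43.1 ± 13.2 CPM under static conditions (SD, n = 4 each), with a log2 fold change of -0.58 ± 0.23 that did not pass the test (adjusted p = 0.0612, edgeR). Without static library 4 the log2 fold change was -0.76 and the adjusted p 0.00735, within a range of 0.00735 to 0.154 over the 8 libraries left out in turn. With the replicate block the adjusted p was 0.00321, and with DESeq2 it was 0.0394.

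Per2 (chr1:91415977-91459351) was the only period gene called, and it rose. It had 20.4, 25.0, 25.9 and 17.0 CPM in shear stress libraries 1 to 4, against 11.5, 19.4, 13.9 and 7.32 CPM in static libraries 1 to 4. Static library 2 lay above shear stress library 4, so the groups overlapped, while each shear stress library was above the static library with its number. Per2 averaged 22.1 ± 4.16 CPM under shear stress and 13.1 ± 5.06 CPM under static conditions (SD, n = 4 each), 1.69-fold higher (log2 fold change 0.76 ± 0.27, adjusted p = 0.0417, edgeR). The call was lost without shear stress library 1, 2 or 3 or static library 1, 3 or 4, with adjusted p between 0.00982 and 0.0946 over the 8 omissions, and with the replicate block the adjusted p was 0.000989.

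Both cryptochrome genes, whose proteins inhibit CLOCK and BMAL1 directly, fell. Cry1 (chr10:85131700-85185054) had 19.96, 23.6, 25.2 and 27.3 CPM in shear stress libraries 1 to 4, against 51.8, 26.0, 39.3 and 43.5 CPM in static libraries 1 to 4. Only static library 2 lay among the shear stress libraries. Cry1 averaged 24.0 ± 3.09 CPM under shear stress and 40.1 ± 10.8 CPM under static conditions (SD, n = 4 each), 1.67-fold lower (log2 fold change -0.74 ± 0.20, adjusted p = 0.0121, edgeR). On log2(FPKM + 1) of the deposited FPKM its difference was -0.44 with an adjusted p of 0.0643 (limma), which did not pass.

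Cry2 (chr2:92403646-92434085) had 37.5, 46.0, 37.0 and 32.1 CPM in shear stress libraries 1 to 4, against 52.4, 83.8, 122 and 55.3 CPM in static libraries 1 to 4. The groups did not overlap, and the static libraries were the more spread of the groups. It averaged 38.2 ± 5.79 CPM under shear stress and 78.5 ± 32.5 CPM under static conditions (SD, n = 4 each), 2.05-fold lower (log2 fold change -1.04 ± 0.26, adjusted p = 0.0104, edgeR).

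Both REV-ERB genes, which form the second loop of the clock as repressors of Arntl, fell. Nr1d1 (chr11:98767932-98775377) had 61.7, 45.8, 28.1 and 42.9 CPM in shear stress libraries 1 to 4, against 94.5, 122, 107 and 80.3 CPM in static libraries 1 to 4. It averaged 44.6 ± 13.8 CPM under shear stress and 101 ± 17.7 CPM under static conditions (SD, n = 4 each), 2.26-fold lower (log2 fold change -1.18 ± 0.22, adjusted p = 0.00245, edgeR). The groups did not overlap. Nr1d1 shares its 3′ end, chr11:98767932-98769006, with Thra, the thyroid hormone receptor alpha gene on the other strand, and the use of strand in counting is not given in the sources used here. Thra averaged 12.4 ± 1.80 CPM under shear stress and 16.0 ± 3.33 CPM under static conditions (SD, n = 4 each; log2 fold change -0.37, adjusted p = 0.100, edgeR), so reads of the overlap could not be told apart between a gene that fell and one that did not pass the test.

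Nr1d2 (chr14:18204056-18239106) had 55.6, 47.7, 54.2 and 40.0 CPM in shear stress libraries 1 to 4, against 133, 179.8, 147 and 86.5 CPM in static libraries 1 to 4. Again no library of one group lay within the other. Nr1d2 averaged 49.4 ± 7.12 CPM under shear stress and 137 ± 38.7 CPM under static conditions (SD, n = 4 each), 2.77-fold lower (log2 fold change -1.47 ± 0.21, adjusted p = 0.000567, edgeR).

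Dbp, the D-box activator that the clock drives as an output, had the lowest counts of the set under shear stress and the largest fold change. Dbp (chr7:45705100-45710203) had 1.45, 1.88, 1.73 and 0.566 CPM in shear stress libraries 1 to 4, against 6.41, 3.67, 9.85 and 2.58 CPM in static libraries 1 to 4. These stand for 24.7, 36.3, 30.2 and 10.4 estimated counts under shear stress and 104, 63.0, 129.5 and 42.6 under static conditions, so counting error is a larger share of each Dbp value than for the other members. All shear stress libraries were below all static libraries. Dbp averaged 1.41 ± 0.588 CPM under shear stress and 5.63 ± 3.25 CPM under static conditions (SD, n = 4 each), 3.96-fold lower (log2 fold change -1.98 ± 0.48, adjusted p = 0.00761, edgeR). Dbp overlaps Sphk2, the sphingosine kinase 2 gene on the other strand, which averaged 31.3 ± 6.58 CPM under shear stress and 19.8 ± 2.51 CPM under static conditions (SD, n = 4 each) and moved the other way (log2 fold change 0.67 ± 0.17, adjusted p = 0.00909, edgeR), and the division of reads between them is uncertain.

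Bhlhe40 was the most abundant member and rose. Bhlhe40 (chr6:108660629-108666925) had 554, 500.1, 679 and 585 CPM in shear stress libraries 1 to 4, against 201, 248, 259 and 232 CPM in static libraries 1 to 4. The lowest shear stress library was well above the highest static library. It averaged 579 ± 74.8 CPM under shear stress and 235 ± 25.4 CPM under static conditions (SD, n = 4 each), 2.47-fold higher (log2 fold change 1.30 ± 0.12, adjusted p = 7.79e-05, edgeR).

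**Figure D2:**
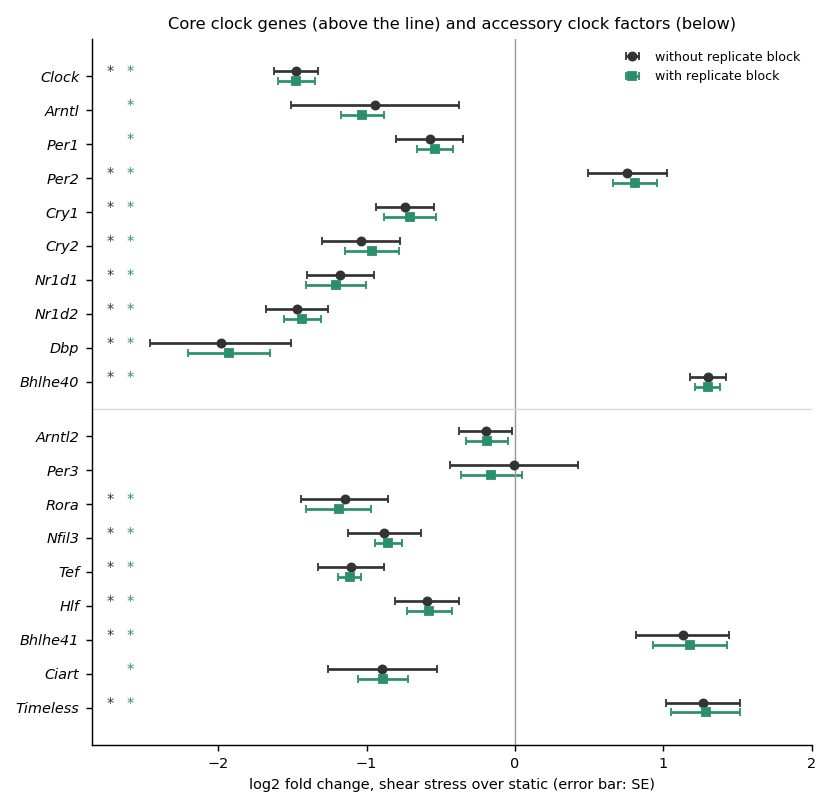
Log2 fold change of shear stress over static with its SE for the 10 core clock genes (above the line) and tested accessory clock factors (below), in the edgeR fit without (black circles) and with (green squares) the replicate number as a block; a star in the same colour marks an adjusted p under 0.05. Arntl, Per1 and Ciart have a green star and no black one, and the wide SE of Arntl, 0.57, is narrower in the blocked fit.

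Related genes within the set did not all move alike, and 4 quotients were compared. The TPM of Per1 over that of Per2 was 1.72, 1.76, 1.39 and 1.70 in shear stress libraries 1 to 4, against 4.32, 3.35, 4.90 and 4.47 in static libraries 1 to 4, with no overlap. On the scale of log2(CPM + 1), Per1 minus Per2 averaged 0.38 ± 0.15 under shear stress and 1.67 ± 0.21 under static conditions (SD, n = 4 each), a difference of -1.29. A two-sided exact permutation test gave p = 0.0286, the smallest that 70 arrangements allow. After adjustment over the 4 quotients it was 0.114, the lowest value open to a quotient that alone reaches this floor. The adjusted test therefore could not pass for this quotient alone and decides nothing about it. An exact sign permutation over the 4 pairs of replicate numbers gave p = 0.125, also the smallest possible.

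For the other 3 quotients the differences were small against their spread. Cry1 minus Cry2 averaged -0.64 ± 0.33 under shear stress and -0.91 ± 0.85 under static conditions on the log2(CPM + 1) scale (SD, n = 4 each; exact permutation p = 0.571). Nr1d1 minus Nr1d2 averaged -0.18 ± 0.50 under shear stress and -0.40 ± 0.20 under static conditions on that scale (SD, n = 4 each; exact permutation p = 0.429). Clock minus Arntl averaged 1.48 ± 0.92 under shear stress and 1.96 ± 0.84 under static conditions on that scale (SD, n = 4 each; exact permutation p = 0.486). The adjusted p of these 3 was 0.571.

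**Figure D3:**
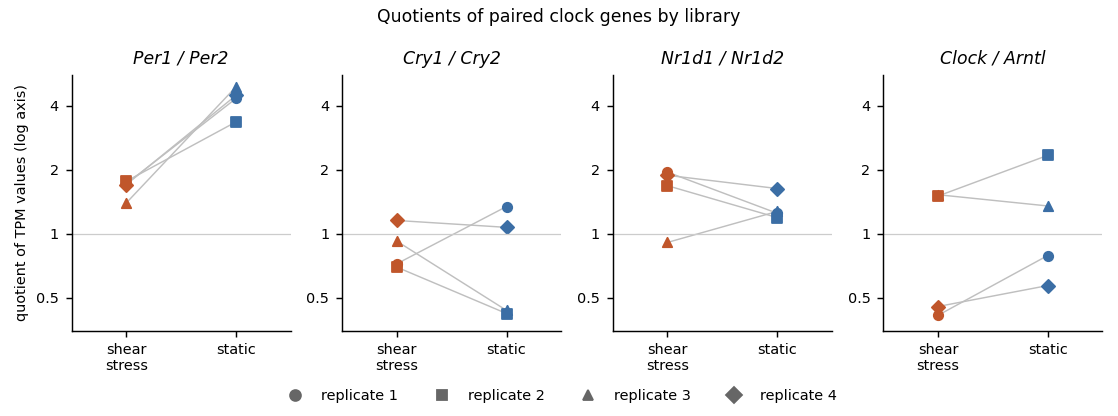
Quotients of TPM values (log axis) for 4 pairs of clock genes in 4 shear stress libraries (left of each panel) and 4 static libraries (right); symbols mark replicate numbers and grey lines join libraries with the same number. The Per1 to Per2 quotients lie between 1.39 and 1.76 under shear stress and between 3.35 and 4.90 under static conditions, while the groups overlap in the other 3 panels.

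Per transcript length, Bhlhe40 stood above all other members in both groups, at 294 ± 39.3 TPM under shear stress and 102 ± 14.8 TPM under static conditions (SD, n = 4 each). Next came Nr1d1 at 25.6 ± 7.20 TPM under shear stress and 50.1 ± 11.6 TPM under static conditions, with no overlap with Bhlhe40 in either group. Nr1d2, Cry2, Cry1, Per1 and Arntl followed in this order in both groups, at mean levels of 16.3, 14.9, 12.6, 9.42 and 6.02 TPM under shear stress and 38.8, 25.9, 17.7, 12.0 and 9.88 TPM under static conditions. The ranges of neighbours in this stretch overlapped in both groups, so the ranges alone do not resolve their order. Library by library, Nr1d1 was above Nr1d2 and Nr1d2 above Cry2 in every static library. Cry1 was above Per1 in every shear stress library. None of these orders held throughout the other group.

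The low end of the order differed between the groups. Under shear stress it ran Per2 at 5.77 ± 1.38 TPM, Clock at 4.10 ± 0.514 TPM and Dbp at 1.58 ± 0.765 TPM, and of these neighbours only Clock and Dbp did not overlap. Under static conditions it ran Clock at 9.76 ± 1.49 TPM, Dbp at 5.31 ± 3.11 TPM and Per2 at 2.92 ± 1.31 TPM, each overlapping the next (SD, n = 4 each). Clock and Per2, not neighbours there, did not overlap, at 7.81 to 11.28 TPM and 1.58 to 4.69 TPM. Under shear stress Per2 was above Clock within every library, though in library 4 only at 4.26 against 4.21 TPM.

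Part of the spread of the clock genes followed the replicate numbers. A term for the replicate number, tested with edgeR in the blocked model after the values had been seen, passed for Arntl (adjusted p = 0.000472), Per1 (0.0405) and Per2 (0.0486), 3 of 10 members, against 11.4% of tested genes. As deviations of log2(CPM + 0.25) from the group mean, Arntl stood at 0.90, -1.14, -0.70 and 0.94 in shear stress libraries 1 to 4 and at 0.74, -1.10, -0.28 and 0.65 in static libraries 1 to 4. Per2 ran the other way, at -0.09, 0.20, 0.25 and -0.35 under shear stress and at -0.09, 0.65, 0.18 and -0.73 under static conditions. Replicate 4 was the lowest library of both groups for Per1, Per2, Nr1d2 and Dbp, with Dbp at -0.93 under shear stress and -0.88 under static conditions. The labels do not say what a replicate number stands for.

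**Figure D4:**
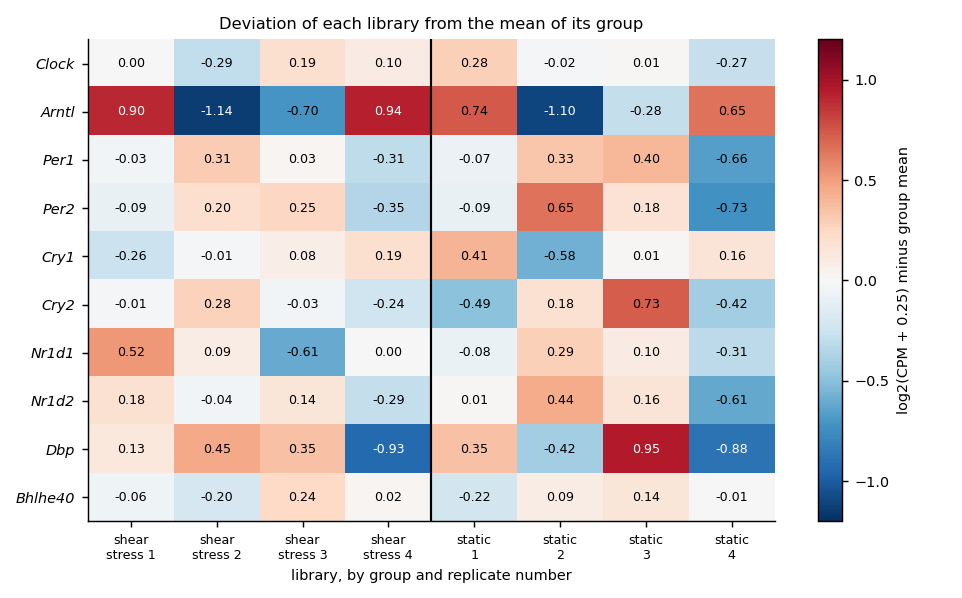
Deviation of each library from the mean of its group, in log2(CPM + 0.25), for the 10 core clock genes (rows) in shear stress libraries 1 to 4 (left of the line) and static libraries 1 to 4 (right). Arntl is red in libraries 1 and 4 and blue in libraries 2 and 3 of both groups, and Per1, Per2, Nr1d2 and Dbp have their lowest value in library 4 of both groups.

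The accessory transcription factors of the clock moved in both directions. Of 12 listed, 10 were tested, 4 fell, 2 rose and 4 were not called, with a median log2 fold change of -0.40, where 48.6% of all tested genes were called, 23.7% lower and 24.9% higher. With the replicate block 5 were lower and 2 higher, against 31% and 30.1% of tested genes. Npas2, a paralog of Clock, was too low to test at 0.85 ± 0.65 CPM under shear stress and 0.59 ± 0.49 CPM under static conditions (SD, n = 4 each). Rorb had no count under shear stress and 0.0489 CPM on average under static conditions, under what 3 counts per library stand for.

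Tef, a D-box activator of the same family as Dbp, fell to 70.1 ± 18.9 CPM under shear stress, against 151 ± 35.6 CPM under static conditions (log2 fold change -1.11 ± 0.22, adjusted p = 0.00329, edgeR). The third member of that family, Hlf, fell to 6.53 ± 1.12 CPM under shear stress, against 9.88 ± 2.76 CPM under static conditions (-0.59 ± 0.21, adjusted p = 0.0434). That Hlf call was lost without shear stress library 1, 2 or 4 or static library 3 or 4, with adjusted p up to 0.110, and also with upper quartile factors, library totals and FPKM. Nfil3, which represses through the D-box, also fell, to 45.3 ± 10.6 CPM under shear stress, against 83.4 ± 25.9 CPM under static conditions (-0.88 ± 0.25, adjusted p = 0.0165, edgeR), a call that was lost with FPKM (limma, adjusted p = 0.0665). All of these values are mean ± SD of n = 4 libraries per group.

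Rora, an activator that opposes REV-ERB at the ROR elements, fell to 38.3 ± 13.8 CPM under shear stress, against 84.9 ± 24.1 CPM under static conditions (log2 fold change -1.15 ± 0.29, adjusted p = 0.0108, edgeR). Bhlhe41, the paralog of Bhlhe40, rose with it, to 11.7 ± 2.74 CPM under shear stress, against 5.30 ± 2.40 CPM under static conditions (1.13 ± 0.32, adjusted p = 0.0152, edgeR). Timeless, named for a fly clock gene and active in mammalian DNA replication, rose to 4.17 ± 0.516 CPM under shear stress, against 1.74 ± 0.515 CPM under static conditions (1.27 ± 0.25, adjusted p = 0.00287, edgeR). Values are mean ± SD of n = 4 libraries per group.

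Per3, the remaining period gene, was not called, at 10.3 ± 6.37 CPM under shear stress and 10.4 ± 2.88 CPM under static conditions (SD, n = 4 each; log2 fold change -0.01 ± 0.43, adjusted p = 0.992, edgeR). Its libraries followed the replicate numbers, at 4.86, 17.2, 14.2 and 4.93 CPM in shear stress libraries 1 to 4 and 7.70, 13.3, 12.4 and 8.10 CPM in static libraries 1 to 4, high where Arntl was low. Ciart, a repressor of CLOCK and BMAL1, was likewise high in libraries 2 and 3 and low in libraries 1 and 4, at 2.89, 6.42, 5.48 and 2.89 CPM under shear stress and 6.78, 11.5, 10.5 and 4.26 CPM under static conditions. Ciart was not called (-0.89 ± 0.37, adjusted p = 0.0704, edgeR), but was with the replicate block (adjusted p = 0.00126), with DESeq2 (0.0387) and without shear stress library 2 (0.0458) or static library 4 (0.0252). The replicate number term passed for 4 of the 10 tested accessory factors, Tef (adjusted p = 0.00418), Nfil3 (0.00429), Ciart (0.0147) and Per3 (0.0235), against 11.4% of tested genes. Arntl2, the paralog of Arntl, was at 12.6 ± 1.75 CPM under shear stress and 14.4 ± 3.03 CPM under static conditions and was not called (-0.20 ± 0.18, adjusted p = 0.376).

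Of 16 kinases, ubiquitin ligases and cofactors that act on clock proteins, 8 fell, 2 rose and 6 were not called, with a median log2 fold change of -0.28, where 23.7% of all tested genes were lower and 24.9% higher. With the replicate block 9 were lower and 3 higher, against 31% and 30.1% of tested genes. The acetyltransferases that serve CLOCK and BMAL1 as coactivators were among the falls, with Crebbp at 19.0 ± 1.31 CPM under shear stress, against 42.3 ± 3.89 CPM under static conditions (SD, n = 4 each; log2 fold change -1.15 ± 0.11, adjusted p = 7.53e-05, edgeR). Ep300 was at 62.5 ± 5.10 CPM under shear stress, against 124 ± 25.6 CPM under static conditions (-0.98 ± 0.14, adjusted p = 0.000575). Sirt1, a deacetylase of clock proteins, was at 15.6 ± 2.24 CPM under shear stress, against 35.0 ± 6.97 CPM under static conditions (-1.16 ± 0.16, adjusted p = 0.000478). Gsk3b, a kinase of several clock proteins, was at 56.5 ± 2.98 CPM under shear stress, against 96.8 ± 13.2 CPM under static conditions (-0.78 ± 0.11, adjusted p = 0.000485).

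Of 16 genes that the liver clock is known to drive, 15 were tested, of which 2 rose, 1 fell and 12 were not called, with a median log2 fold change of 0.08, where 48.6% of all tested genes were called. The replicate number term passed for 8 of the 15: Wee1, Nampt, Por, Elovl3, Cyp2a5, Gys2, Slc2a2 and Rgs16, against 11.4% of tested genes. With the replicate block 4 were higher and 3 lower, where 61.1% of tested genes were called. Noct, which encodes nocturnin, rose to 32.7 ± 14.5 CPM under shear stress, against 5.97 ± 1.28 CPM under static conditions (SD, n = 4 each; log2 fold change 2.45 ± 0.37, adjusted p = 0.000834, edgeR). Ppara, the fatty acid receptor PPAR alpha, rose to 25.7 ± 4.22 CPM under shear stress, against 15.8 ± 4.36 CPM under static conditions (0.71 ± 0.20, adjusted p = 0.0163). Nampt, the rate-limiting enzyme of NAD salvage, fell to 75.7 ± 16.5 CPM under shear stress, against 111 ± 21.6 CPM under static conditions (-0.55 ± 0.18, adjusted p = 0.0282). The Nampt call was lost without shear stress library 1, 3 or 4 or static library 1 or 2, with adjusted p between 0.00915 and 0.0789, and also with upper quartile factors, library totals and FPKM.

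Glucocorticoid and cAMP signals reset liver clocks, and of 16 genes of these inputs 8 fell, 2 rose and 6 were not called, with a median log2 fold change of -0.60, where 23.7% of all tested genes were lower and 24.9% higher. With the replicate block 9 were lower and 2 higher, against 31% and 30.1% of tested genes. Fkbp5, a chaperone cofactor that glucocorticoids induce, rose to 63.6 ± 1.04 CPM under shear stress, against 18.9 ± 3.74 CPM under static conditions (SD, n = 4 each; log2 fold change 1.75 ± 0.14, adjusted p = 5.5e-05, edgeR). Klf9, a transcription factor that glucocorticoids also induce, fell to 33.1 ± 2.91 CPM under shear stress, against 63.7 ± 12.6 CPM under static conditions (-0.94 ± 0.15, adjusted p = 0.00101). Crtc2, a coactivator of CREB, fell to 43.3 ± 4.07 CPM under shear stress, against 90.8 ± 14.3 CPM under static conditions (-1.07 ± 0.13, adjusted p = 0.000239). Fos, an early response gene, fell to 31.9 ± 11.1 CPM under shear stress, against 193 ± 62.0 CPM under static conditions (-2.59 ± 0.32, adjusted p = 0.000361). Fkbp5 and Klf9, both induced by glucocorticoids elsewhere, stood on opposite sides. In the same list Sgk1 (log2 fold change -1.67, adjusted p = 0.00306, edgeR), Tat (-0.84, 0.0348) and the glucocorticoid receptor gene Nr3c1 (-0.75, 0.00125) also fell. Tsc22d3 (adjusted p = 0.797, edgeR) and Zbtb16 (0.646) were not called, and Sik1 rose (1.52, 0.00156).

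**Figure D5:**
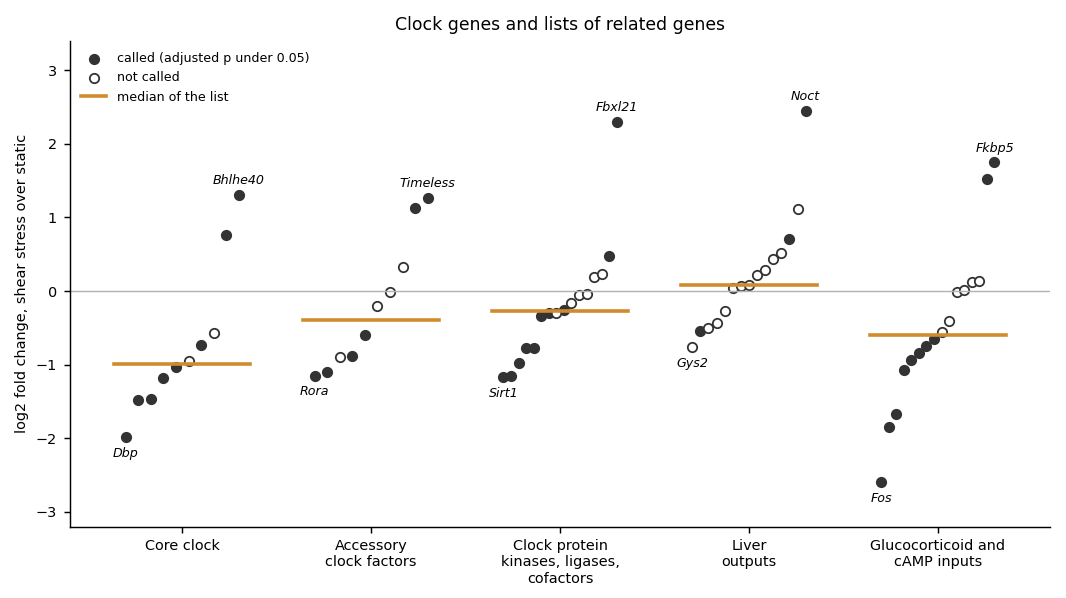
Log2 fold change of shear stress over static for each tested gene of the core clock and of 4 lists of related genes, ordered by value within a list, with filled points for an adjusted p under 0.05 (edgeR), open points for the rest and a bar at the median. The medians are -0.99 for the core clock, -0.40 for accessory factors, -0.28 for kinases, ligases and cofactors, 0.08 for liver outputs and -0.60 for glucocorticoid and cAMP inputs.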

How the data were processed

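RNA of 4 shear stress and 4 static hepatocyte libraries was measured. Per the submitters' processing notes, HISAT, Bowtie2, RSEM and the build GRCm38 (mm10) were used; for versions, annotation and use of strand, nothing is given in the sources used here. The deposited read counts are expected counts estimated by the authors, between 9.31% and 10.7% of them not whole per library, and were rounded. The deposited TPM values, a column the authors supplied per the file headers, gave levels between genes. The deposited FPKM values, also the authors', entered 1 alternative.

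Genes kept by filterByExpr, 11747 of 17276, were scaled by TMM and tested with edgeR 4.0.16 (quasi-likelihood F test, robust, R 4.3.3), with Benjamini-Hochberg adjustment over all 11747 and a threshold of 0.05. An SE is the log2 fold change over the square root of F. Calls at this threshold are what the text means by rose or fell. Quotients of related genes were tested by exact permutation. Coordinates and promoters are RefSeq GRCm38.p6. The fit was tested on simulated counts with far fewer changed genes than were called here and no effect of the replicate number. That test therefore does not bear on the choice of scaling or on the blocked fit.

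The members, the lists, the tests and the rule for named genes were chosen with earlier results of these data known. The rule names all members, the tested accessory factors, up to 4 called genes of each other list by smallest p, and the genes most like each member; a few genes it picks are not reported here.

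The groups share replicate numbers. In deviations from the group means of 8446 genes (mean log2 CPM over 3), the Pearson r of same-numbered libraries was 0.679, 0.642, 0.56 and 0.467, and at most -0.018 for other pairings. Deviations cancel within each group, so a positive same-numbered r makes the other pairings negative on balance, and their low values add no support. The same-numbered r was the positive value for every library, so the numbers pair the libraries, although the labels do not say why. The main fit has no block, and blocked values stand beside named results whose call they change and beside the counts of the lists. Other scalings, no filter, DESeq2 1.42.0, limma 3.58.1 on log2(FPKM + 1), other pseudocounts and each library left out were the alternatives.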

Additional observations from a re-analysis of the deposited data

Results flagged for a closer look

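Over 62 groups of 4 libraries, 1 group per gene and condition, each library was set against the rest of its group, a comparison in which chance singles out about 1 group in 20. It singled out 1. Klf9, a transcription factor that glucocorticoids induce, was at 44.9 CPM in static library 4, while the other 3 static libraries lay between 67.8 and 71.0 CPM. The library was still above the shear stress libraries of Klf9, which averaged 33.1 ± 2.91 CPM (SD, n = 4). Without static library 4 the log2 fold change of Klf9 was -1.08 with an adjusted p of 0.000209 in edgeR.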

How the results depend on the processing

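All 10 core members kept their direction in the 15 alternatives, and the calls that changed were those of Arntl, Per1, Per2 and Cry1 given above. With each library left out, 1 to 2 members were called higher. Scaling moved the whole distribution: the median log2 fold change of all genes was 0.22 with library totals, 0.13 with upper quartile factors and 0.18 with FPKM, against -0.01 with TMM, and the share of higher among called genes was 73.0%, 64.8% and 73.6%, against 51.2%. Genes called lower numbered 1539 with library totals and 1315 with FPKM, against 2783. With FPKM, accessory factors called higher or lower numbered 1 and 2, and 5 kinases, ligases and cofactors and 5 input genes were called lower. Kinases, ligases and cofactors called higher numbered 4 with library totals and with upper quartile factors, and 5 were lower with library totals. Liver outputs called lower numbered 0 with library totals, upper quartile factors (edgeR) and FPKM (limma), where 0, 1 and 0 had an unadjusted p under 0.05, and 0 to 2 with each library left out (1 to 2 by unadjusted p). With the replicate block 4 outputs were higher and 3 lower, and among the core members and accessory factors it changed no call but those of Arntl, Per1 and Ciart. Arntl2 turned to 0.023 with library totals and 0.033 with FPKM. Per3 turned to 0.23 with library totals, 0.14 with upper quartile factors and 0.063 with FPKM, and lay between -0.37 and 0.25 with each library left out. The causes were not tested. Depth limits Dbp most, at 10.4 to 36.3 estimated counts under shear stress.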

Other observations

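For each core member, the tested genes with at least 5 CPM whose libraries deviated most alike from their group means were listed by Pearson r over the 8 libraries, among 9175 candidates. These libraries fall into 4 pairs by replicate number, so the r values describe a ranking and carry no p. The closest gene to Clock was C9orf72 (r = 0.97), that to Arntl was Mup19, a major urinary protein gene (0.99), that to Per1 was Lin54 (0.99) and that to Per2 was Lmbrd1 (0.99). The closest gene to Cry1 was Dhrs4 (0.98), that to Cry2 was Samd4 (0.98), that to Nr1d1 was Eif3m (0.98) and that to Nr1d2 was Itpkc (0.98). Dbp was nearest to the phosphatase gene Ptp4a1 (0.996), which fell (log2 fold change -1.04, adjusted p = 0.000224, edgeR), and next to Adamts1 (0.97), a protease gene that fell by 2.87 on the log2 scale (adjusted p = 4.79e-05, edgeR). Bhlhe40 was nearest to Gcnt2 (0.97), which fell (-0.99, adjusted p = 0.00371, edgeR) while Bhlhe40 rose. No core member was among the 3 genes nearest to another. Mup19 was not called between the groups (-0.05, adjusted p = 0.966, edgeR), and its replicate number term had an adjusted p of 2.77e-08.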
